A study of Mus musculus with 36 samples.

Results

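The 38 genes described here encode proteins of the presynaptic vesicle cycle, from the vesicle membrane and the SNARE fusion machinery to the active zone and endocytosis. They were chosen by name and by the role of their protein, and their rows were taken from the count table of every library. They make up 38 of the 55470 gene rows, and all 38 were among the 11341 genes with enough counts to be tested. Transmitter release begins when a vesicle docks at the active zone, where scaffold and priming proteins prepare it, and ends when the vesicle protein synaptobrevin pairs with syntaxin and SNAP-25 on the plasma membrane. Synaptotagmins and Doc2 proteins sense the calcium that enters with an action potential, complexins clamp and promote fusion, and the ATPase NSF with its SNAP adaptors takes the spent SNARE complex apart. Clathrin adaptors, dynamin and synaptojanin then retrieve the membrane, and cortical pyramidal neurons depend on this cycle for their glutamate output.

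The RNA came from the cortex of C57BL6JL mice by RiboTag, in which Cre switches on an HA tag on the ribosomal protein Rpl22 so that ribosomes and the RNA bound to them can be pulled down with an anti-HA antibody. The mutant mice were Shank3(deltaC/+); HA-Rpl22(f/+);Camk2a-Cre(+/-), and the controls, called WT in the labels, were littermates of genotype Shank3(+/+);HA-Rpl22(f/+);Camk2a-Cre(+/-). The extraction protocol writes HA-Rpl22(f/f) in place of (f/+). Both genotypes carried the tag and the Cre, and the tag is limited to cells in which Camk2a-Cre was active. Naive mice stayed in their home cage, and the others swam in water of 25 °C and were killed 1 h or 4 h later. The duration of the swim is 5 min in the sample annotation and 6 min in the protocol text. The 1 h groups (6 WT and 5 Shank3 libraries) belong to cohort 1 together with 3 naive libraries of each genotype. The 4 h groups (5 WT and 6 Shank3 libraries) belong to cohort 2, with 4 naive libraries of each. Age and sex are not given in the sources used here. No label links a library to its animal, and p-values therefore rest on how far libraries differ, which may be technical. The comparisons ask how the vesicle genes differed between genotypes and how they changed after the swim in each. Each swim group was compared with naive mice of its own genotype and cohort.

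The libraries held 0.884 to 3.52 M counts, and the 38 genes took 1.02% of all counts. The 6 pyramidal neuron markers were all tested, with Camk2a at a mean of 1125 CPM (counts scaled to a common library size by edgeR's TMM factors) and Nrgn at 512. Of the markers of other cells, microglial Csf1r was at 559.9 CPM, oligodendrocyte Cnp at 83.9 and Mbp at 33.3 CPM, with counts in all 36 libraries. Csf1r and Cnp have an exon opposite another gene, and microglial P2ry12 was at 0 in 34 libraries. The interneuron genes Gad1 and Gad2 were at 9.01 and 7.78 CPM, Sst was at 0 in 23 libraries and endothelial Cldn5 in all 36. The targeted gene Shank3 itself did not pass the threshold between genotypes, at 0.65 ± 0.16 (log2 ± SE) averaged over the conditions (edgeR adjusted p = 0.794). The count per gene is not a check of the label, since it does not separate the altered end of the transcript. Rows with an exon opposite an exon of another gene held 75.2% of all counts in 16.1% of the rows, and 11 of the 38 vesicle genes were of that kind. The pair share, defined as the percent of counts on coding rows among 1813 pairs of a coding and an antisense row with overlapping exons, ran from 10.7% to 33.1% between libraries. It was 10.8 ± 0.182% (SD, n = 3) in naive WT mice of cohort 1 and 14.4 ± 2.09% (n = 6) at 1 h (exact two-sided permutation p = 0.0357, 0.0476 after Benjamini-Hochberg adjustment over 4 comparisons). In cohort 2 the naive WT libraries had 13.2 ± 1.4% (n = 4) and those at 4 h 23.2 ± 5.31% (n = 5, exact two-sided permutation p = 0.0159, adjusted 0.0381). The Shank3 libraries went from 11.3 ± 0.568% (n = 3) to 14.0 ± 1.81% (n = 5) at 1 h (exact permutation p = 0.0714) and from 13.1 ± 1.48% (n = 4) to 25.5 ± 7.23% (n = 6) at 4 h (exact permutation p = 0.0190, adjusted 0.0381). No swim library had a pair share as low as the highest naive library of its genotype and cohort.

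Levels between genes were compared as CPM per kilobase of merged exons, averaged over the 36 libraries with the SD over them. Snap25, the plasma membrane SNARE of the fusion complex, was the most abundant at 295 ± 73.9 CPM per kb and alone held 25.6% of the counts of the 38 genes. Cplx2, a complexin, followed at 213 ± 49.6 and Doc2a, a calcium sensor of spontaneous and asynchronous release, at 209 ± 93.3 CPM per kb. These neighbours in the order did not differ beyond the spread of Doc2a. Cplx1 stood at 115 ± 38 and Vamp2, the synaptobrevin of forebrain vesicles, at 93.3 ± 63.6 CPM per kb, and these values overlap within their SD. The endocytic GTPase Dnm1, the vesicle tether Syn1, the syntaxin Stx1a, the fast calcium sensor Syt1 and the vesicle GTPase Rab3a lay between 63.9 and 45.3 CPM per kb. At the low end were the large active zone scaffolds Bsn at 1.79 ± 0.346 and Pclo at 0.482 ± 0.155, with Doc2b at 1.29 ± 0.723 CPM per kb between them. Doc2b had no count in the naive WT library of replicate 3, which allows up to 4.71 CPM at 3 counts and covers counting error only. For 11 of the 38 genes the median count per library was under 50, so their values are less precise.

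**Figure D1:**
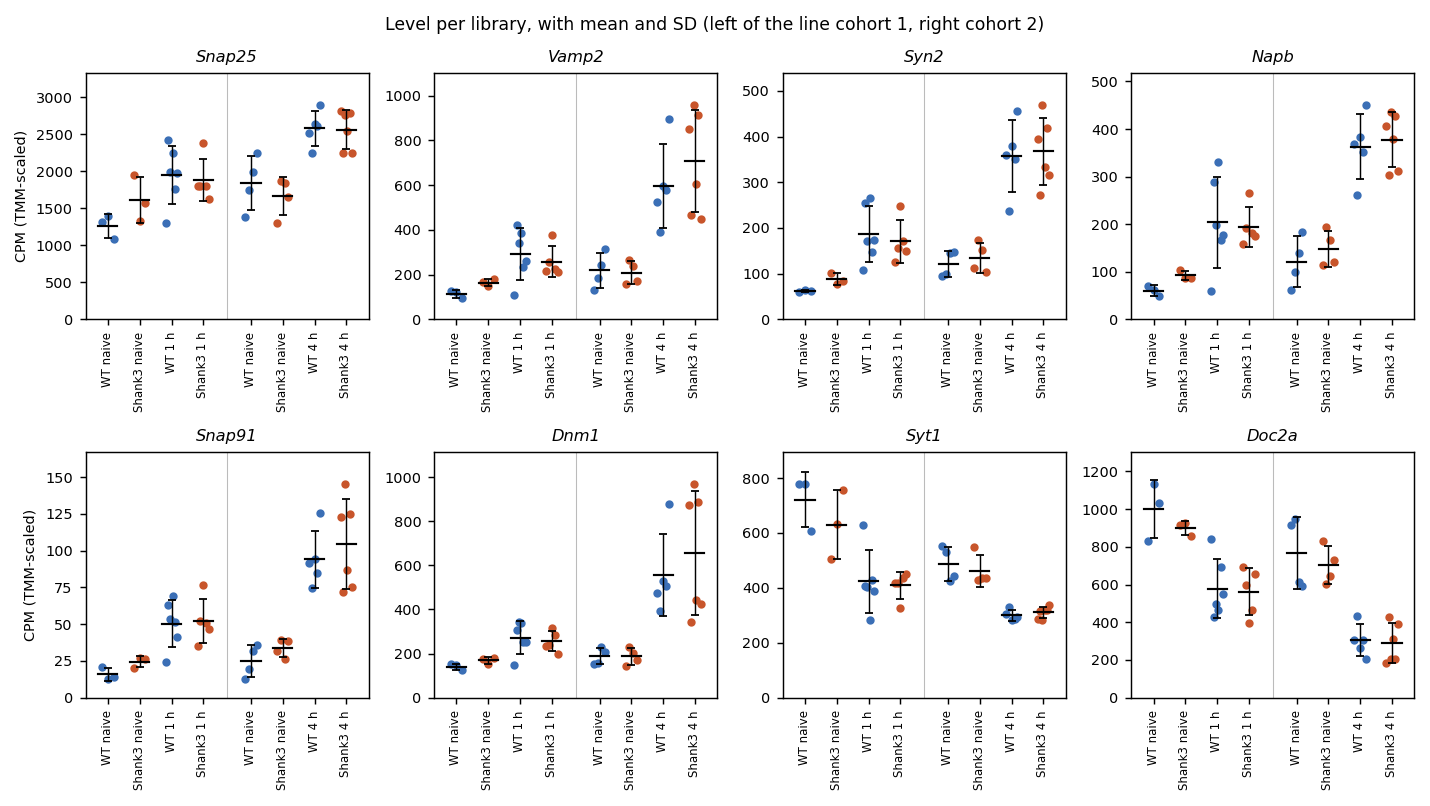
Level of 8 vesicle genes in each of the 36 libraries, in CPM scaled by TMM on linear axes from 0, with WT in blue and Shank3 in orange. Long bars are means and capped bars the SD of a group. Snap25, Vamp2, Syn2, Napb, Snap91 and Dnm1 were above every naive library of their genotype and cohort in every 4 h library, whereas Syt1 and Doc2a were below; for Syt1 the fold change at 4 h turned positive when libraries were scaled by total counts.

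Upstream windows of 250 bases, taken from RefSeq on GRCm38.p6, were found for 27 of the 38 genes. Of these, Syn1 and Sh3gl2, which encodes the endophilin that bends endocytic membrane, held the full cyclic AMP response element TGACGTCA on either strand, a share of 7.41%. The element occurred in 1.55% of 32851 such windows of all genes. The 30 bases around each match are shown 5′ to 3′ on the strand of the gene, with the element in capitals, because Syn1 was among the genes that differed most between the swim times. The Syn1 stretch is chrX:20921059-20921088 on the minus strand and begins its match 159 bases before the RefSeq start. The Sh3gl2 stretch is chr4:85205408-85205437 on the plus strand with its match beginning 37 bases before the RefSeq start. GENCODE vM21, which gave the gene positions, has other starts, at 20921004 for Syn1 and 85205126 for Sh3gl2. By that annotation the Syn1 stretch is still upstream, but the Sh3gl2 stretch lies inside the gene.
Syn1: caaaggctgacTGACGTCActcactagccc
Sh3gl2: atcacccgcccTGACGTCAgggtgtctctc
Sh3gl2 did not differ between the swim times past the threshold. In the same windows the AP-1 site TGAGTCA was found in 0 of 27 genes and in 4.46% of all windows. The letters TCAGCACC, found within the binding element of the neuronal repressor REST, were in Napa and Syn1 and in 1.32% of all windows. The binding motif of NRF1 was in Bsn, Nsf, Pclo and Stxbp5 and in 3.74% of all windows. The E-box CACGTG was in Napa, Nsf and Sv2b and in 6.02% of all windows. All 5 motifs were searched on both strands after the values were known, and a match describes letters only.

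In WT mice 1 h after the swim, 15 of the 38 vesicle genes rose and 2 fell against naive mice (edgeR's quasi-likelihood test, adjusted p under 0.05). Of all genes tested 34.2% were called, 16.9% higher and 17.3% lower. The median log2 fold change was 0.53 over the vesicle genes and 0.24 over all genes, and 33 of the 38 were above 0, or 86.8%, against 58.4% of all genes. All 6 endocytosis genes rose, as did 4 of 6 genes of SNARE recycling and regulation, 3 of 9 vesicle proteins and 2 of 4 SNARE proteins. None of the 6 active zone and priming genes was called, and among the 7 calcium sensors 2 fell. Every swim library was above every naive one for 8 of the 38 genes, which held for 10.6% of all genes, and below for 0, which held for 13.9%.

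Syn2, a synapsin that tethers vesicles to the cytoskeleton, had 60.5, 64.4 and 62.8 CPM in naive WT mice. At 1 h it stood at 107 at the lowest, 172 at the median and 266 at the highest CPM. Every swim library was above every naive one, and the estimated change was 1.58 ± 0.28 log2 units (estimate ± SE, adjusted p = 0.000426 by edgeR). Snap91, the clathrin adaptor AP180, had 20.7, 12.7 and 14.1 CPM in naive mice. It reached 23.9 at the lowest, 52.4 at the median and 69.1 at the highest CPM at 1 h, again without overlap, a log2 fold change of 1.72 ± 0.35 (adjusted p = 0.0011). Napb, the brain form of the SNAP adaptor for NSF, had 70.9, 62.1 and 48.7 CPM in naive mice and 60.4 at the lowest, 188 at the median and 329.9 at the highest CPM at 1 h. Here the groups overlapped, because replicate 1 of the 1 h group lay among the naive libraries. Its log2 fold change was 1.76 ± 0.34 (adjusted p = 0.000719). Stxbp5, the tomosyn that holds syntaxin away from the fusion complex, had 22.5, 11.5 and 9.42 CPM in naive mice. At 1 h it had 20.1 at the lowest, 35.7 at the median and 46.2 at the highest CPM and overlapped in that same replicate 1 (log2 fold change 1.33 ± 0.29, adjusted p = 0.00151). That library also had the lowest pair share of its group, 11.4%, and the highest Cplx2, 1719 CPM.

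The other endocytosis genes had log2 fold changes from 0.71 for Sh3gl2 to 1.08 for Synj1, the phosphatase that strips clathrin coats. Dnm1, which cuts the vesicle neck, was at 0.96, the amphiphysin Amph at 0.91 and its relative Bin1 at 1.06. Among SNAREs Vamp2 rose by 1.36 and Snap25 by 0.62 on the log2 scale, while Stx1a (0.39) and the second synaptobrevin Vamp1 (0.05) did not pass. Nsf rose by 1.01 and Napa, the widely expressed SNAP adaptor, by 2.11, though Napa had as little as 1 count in a library. Of the vesicle proteins, Dnajc5, the chaperone that protects SNAP-25, rose by 0.99 and Syn1 by 0.89. Rab3a, Rab3c, the glycoproteins Sv2a and Sv2b and the synaptogyrins Syngr1 and Syngr3 were between 0.21 and 0.73 without a call.

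Syt1, the synaptotagmin that triggers fast synchronous release, had 779.7, 778 and 606 CPM in naive WT mice. At 1 h the level was 284 at the lowest, 404 at the median and 631 at the highest CPM, and the groups overlapped in replicate 1. The log2 fold change was -0.77 ± 0.19 (edgeR adjusted p = 0.00356), and -0.22 without a call when libraries were scaled by total counts. Doc2a had 833, 1136 and 1031 CPM in naive mice and 428 at the lowest, 524 at the median and 841 at the highest CPM at 1 h. Replicate 1 again lay within the naive range. Its log2 fold change was -0.79 ± 0.26 (adjusted p = 0.0176), and -0.25 without a call by total counts. Cplx2 was at -0.49 (adjusted p = 0.0584), and at 0.05 by total counts, so its direction depends on the scaling. Without naive WT replicate 3, 11 of the 38 genes passed in place of 17.

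In Shank3 mice at 1 h, 3 vesicle genes rose and 1 fell, where 12.2% of all genes were called, 4.99% higher and 7.25% lower. The 3 that rose, Syn2, Napb and Snap91, were also among those that rose in WT mice, and Syt1 fell in both. Those results share no library between the genotypes. The median log2 fold change was 0.33 over the vesicle genes and 0.09 over all genes. In 13 of the 38 genes every swim library was above every naive one, which held for 12.4% of all genes, and in 3 every one was below, which held for 16.2%.

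Syn2 had 102, 77.9 and 84.8 CPM in naive Shank3 mice and 125, 157, 248, 172 and 151 CPM at 1 h. These did not overlap, and the log2 fold change was 0.95 ± 0.27 (edgeR adjusted p = 0.026). Snap91 went from 20.2, 26.7 and 26.6 CPM to 34.9, 52.2, 76.3, 50.6 and 46.6 CPM, also without overlap (1.10 ± 0.32, adjusted p = 0.0275). Napb had 104, 87.2 and 86 CPM in naive mice and 158, 192, 265, 181 and 174 CPM at 1 h. Every swim value was higher, with a log2 fold change of 1.07 ± 0.33 (adjusted p = 0.0332). Syt1 had 504, 631 and 756 CPM in naive mice and 418, 418, 325, 438 and 450.1 CPM after the swim, each below every naive value. Its log2 fold change was -0.62 ± 0.20 (adjusted p = 0.0376), and -0.15 without a call by total counts. The other 5 endocytosis genes lay above every naive library too, at 0.37 for Amph to 0.66 for Bin1, but none passed the threshold. No call was left without Shank3 1 h replicate 3, without naive Shank3 replicate 2 or without naive Shank3 replicate 3, and 2 were left without naive Shank3 replicate 1. Other fits called more of the 38 genes, with 13 by limma, 11 with an additive cohort term, 10 by total counts and 10 without the 4 h libraries of pair share over 25%. The shares of all genes called in these fits are not set beside them, so these counts are not read as particular to the vesicle genes.

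At 4 h in WT mice 28 of the 38 genes rose and 2 fell, where 56% of all genes were called, 29% higher and 26.9% lower. In Shank3 mice 30 rose and 3 fell, where 62.1% were called, 32.7% higher and 29.4% lower. The median log2 fold change of the vesicle genes was 0.90 in WT and 0.94 in Shank3 mice, against 0.23 and 0.22 over all genes. Every 4 h library was above every naive one for 23 genes in WT and 25 in Shank3 mice, which held for 21.3% and 20.5% of all genes. Every one was below for 2 and 3 genes, which held for 19.3% and 19.8% of all genes. The 2 genotypes shared no library here, and 27 genes rose in both while Syt1 and Doc2a fell in both. In bulk RNA, fewer cells of a type and less RNA per cell cannot be told apart.

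**Figure D2:**
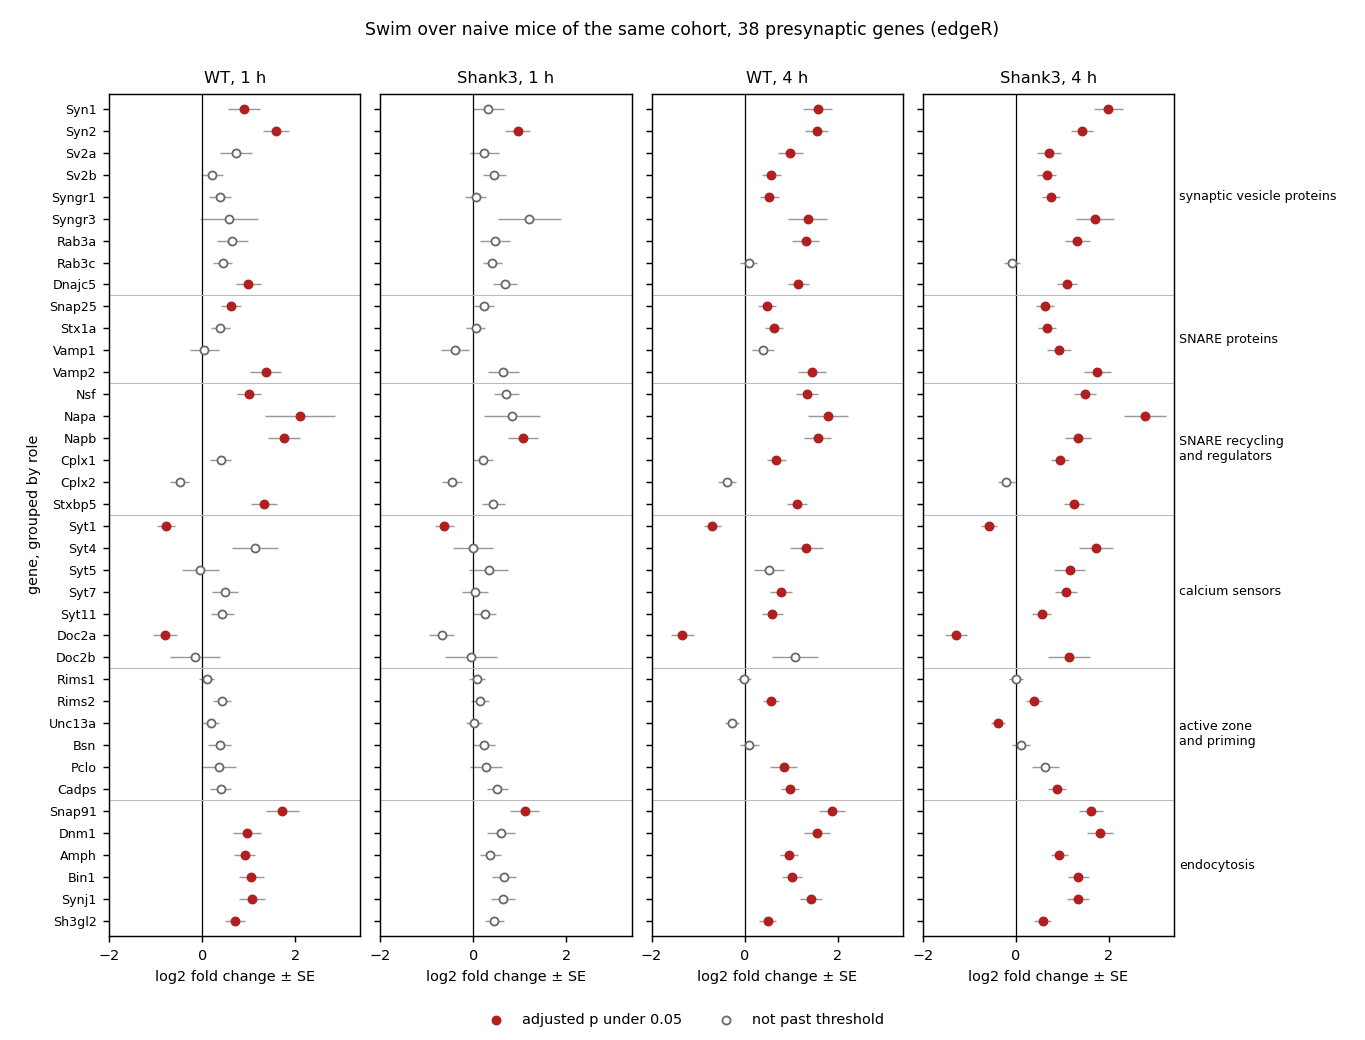
Log2 fold change (swim over naive, ± SE) of the 38 genes in each genotype and time, ordered by role. Filled points passed an edgeR adjusted p of 0.05. At 4 h all 6 endocytosis genes are filled to the right of 0 in both genotypes, while Rims1 and Bsn sit near 0. Syt1 and Doc2a lie to the left. With total-count scaling Syt1 moves to the right of 0 at 4 h and Doc2a stays to the left. Rims1 and Bsn were then called upward in Shank3 mice at 4 h.

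The endocytosis genes rose as a whole list at 4 h, 6 of 6 in both genotypes. Snap91 had 12.7, 19.7, 32 and 35.9 CPM in naive WT mice of cohort 2 and 91.6, 74.3, 94.2, 84.6 and 126 CPM at 4 h. Every swim library was above every naive one, and the log2 fold change was 1.87 ± 0.28 (edgeR adjusted p = 4.06e-06). In Shank3 mice it went from 31.8, 38.9, 26.1 and 38.7 CPM to 71.6 at the lowest, 105 at the median and 146 at the highest CPM (1.62 ± 0.26, adjusted p = 5.33e-06). Dnm1 had 155, 159, 231 and 208 CPM in naive WT mice and 476, 395, 530.3, 507 and 878 CPM at 4 h, a log2 fold change of 1.56 ± 0.28 (adjusted p = 2.52e-05). In Shank3 mice Dnm1 went from 143, 231, 204 and 170.4 CPM to 343 at the lowest, 659 at the median and 970.4 at the highest CPM, the smallest p of the 38 genes there (1.81 ± 0.27, adjusted p = 2.91e-06). The 4 h values of Dnm1 spread widely, and its 4 highest libraries were the 4 with a pair share over 25%. Synj1 rose by 1.43 in WT and 1.34 in Shank3 mice, Bin1 by 1.02 and 1.34, Amph by 0.95 and 0.94, and Sh3gl2 by 0.50 and 0.58 on the log2 scale.

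Of the 9 vesicle proteins 8 rose in each genotype, and Rab3c did not pass in either. Syn2 had 94.6, 98.7, 144 and 147 CPM in naive WT mice and 359, 237, 380.4, 351 and 456 CPM at 4 h (1.55 ± 0.24, edgeR adjusted p = 7.29e-06). No library overlapped, and the same was seen in Shank3 mice, from 111, 174, 151 and 105 CPM to 273 at the lowest, 364 at the median and 468 at the highest CPM (1.43 ± 0.24, adjusted p = 6.26e-06). Syn1 had 80.8, 110.3, 121 and 95.9 CPM in naive Shank3 mice and 200.2 at the lowest, 388 at the median and 685 at the highest CPM at 4 h, with a log2 fold change of 1.99 ± 0.31 (adjusted p = 3.63e-06). In WT mice Syn1 went from 81.9, 121, 118 and 117 CPM to 233, 195, 324, 291 and 583 CPM (1.57 ± 0.31, adjusted p = 9.41e-05). The Syn1 groups did not overlap in either genotype. Syngr3, a synaptogyrin of few counts, was at 1.35 and 1.70, Rab3a at 1.32 and 1.33, Dnajc5 at 1.16 and 1.10, Sv2a at 0.98 and 0.72, Syngr1 at 0.53 and 0.76 and Sv2b at 0.58 and 0.67 in WT and Shank3 mice. Rab3c was at 0.09 and -0.08, and at 0.84 and 0.80 by total counts.

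Among the SNARE proteins 3 of 4 rose in WT and 4 of 4 in Shank3 mice. Snap25 had 1388, 1753, 1986 and 2248 CPM in naive WT mice and 2514, 2253, 2636, 2611 and 2893 CPM at 4 h, so that the lowest swim library lay just above the highest naive one (0.49 ± 0.20, edgeR adjusted p = 0.0349). In Shank3 mice it went from 1302, 1874, 1839 and 1649 CPM to 2243 at the lowest, 2651 at the median and 2816 at the highest CPM (0.62 ± 0.19, adjusted p = 0.00542). Vamp2 had 133, 187, 241 and 314 CPM in naive WT mice and 523, 389, 595, 578 and 895 CPM at 4 h (1.44 ± 0.30, adjusted p = 0.000156), and it rose by 1.76 in Shank3 mice. Vamp2 thus had the largest log2 fold change of the 4 SNARE genes in both genotypes. Stx1a rose by 0.63 and 0.67. Vamp1 rose by 0.93 in Shank3 mice and was at 0.39 in WT mice (adjusted p = 0.164), a difference between genotypes that did not pass (0.54 ± 0.35, adjusted p = 1).

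Of the genes that recycle or regulate SNAREs, 5 of 6 rose in each genotype. Nsf had 150.0, 186, 217 and 192 CPM in naive WT mice and 394, 363, 507, 438 and 666 CPM at 4 h (1.34 ± 0.24, edgeR adjusted p = 2.93e-05). In Shank3 mice it went from 143, 234, 216 and 156 CPM to 368 at the lowest, 523 at the median and 736 at the highest CPM (1.50 ± 0.24, adjusted p = 4.05e-06). Every 4 h library of either genotype exceeded the naive ones. Napa had 10.6, 12.4, 10.7 and 7.16 CPM in naive Shank3 mice and 27.2 at the lowest, 69 at the median and 127 at the highest CPM at 4 h, the largest log2 fold change of the 38 genes (2.77 ± 0.45, adjusted p = 5.16e-06). In WT mice Napa went from 9.23, 17.1, 15 and 17.9 CPM to 34.6, 25.4, 49.5, 45.6 and 99.6 CPM (1.80 ± 0.43, adjusted p = 0.000712). Its 4 highest values over both genotypes were again those of the libraries with a pair share over 25%. Napb rose by 1.57 and 1.34, Stxbp5 by 1.13 and 1.26 and Cplx1, the complexin of fast release, by 0.69 and 0.95. Cplx2 was at -0.38 in WT and -0.20 in Shank3 mice without a call, and at 0.42 and 0.78 with calls when scaled by total counts.

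The calcium sensors split. Syt1 had 551, 530.4, 424 and 444 CPM in naive WT mice and 306, 331, 282, 288 and 293 CPM at 4 h, all lower, for a log2 fold change of -0.70 ± 0.18 (edgeR adjusted p = 0.00172) that became 0.08 by total counts. In Shank3 mice it went from 549.7, 428, 436 and 435 CPM to 283 at the lowest, 317 at the median and 338 at the highest CPM, again all lower (-0.57 ± 0.18, adjusted p = 0.00532), and 0.39 with a call by total counts (adjusted p = 0.0258). The direction of Syt1 at 4 h thus depends on the scaling. Doc2a had 917, 948, 612 and 594 CPM in naive WT mice and 308, 436, 265, 306 and 203 CPM at 4 h (-1.34 ± 0.25, adjusted p = 4.48e-05). In Shank3 mice it went from 831, 602, 645 and 730.1 CPM to 184 at the lowest, 259.8 at the median and 429.9 at the highest CPM (-1.29 ± 0.24, adjusted p = 2.48e-05). Doc2a remained lower by total counts, at -0.58 (adjusted p = 0.00229) and -0.36 (adjusted p = 0.0344). Syt4, a synaptotagmin without full calcium binding, rose by 1.33 and 1.72, though it was at -0.77 and -0.76 with antisense rows summed into coding rows. Syt7, the sensor of slow release, rose by 0.79 and 1.08, and Syt11 by 0.60 and 0.55. Syt5 and Doc2b passed only in Shank3 mice, at 1.16 and 1.14 against 0.53 and 1.09 in WT mice, and neither difference passed (adjusted p = 1 and 1).

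Of the 6 active zone and priming genes 3 rose in WT mice, and 2 rose and 1 fell in Shank3 mice. Rims1, the scaffold that links calcium channels to docked vesicles, had 100.4, 113, 119.7 and 116 CPM in naive WT mice and 103, 121, 109, 107 and 119 CPM at 4 h (-0.01 ± 0.15). In Shank3 mice the log2 fold change was 0.00 ± 0.15, with an approximate 95% interval of -0.28 to 0.29. These groups overlapped. Bsn was at 0.10 and 0.12 without a call. By total counts all 38 genes were called in Shank3 mice at 4 h and only Doc2a fell. Rims1 and Bsn were thus called upward there, so their values near 0 depend on the scaling. Rims2 rose by 0.56 and 0.39, and Cadps, which primes vesicles, by 0.97 and 0.88. Unc13a, the Munc13 priming factor, had 325, 317, 323 and 296 CPM in naive Shank3 mice and 199 at the lowest, 239 at the median and 289 at the highest CPM at 4 h, all lower (-0.38 ± 0.15, edgeR adjusted p = 0.029), but 0.56 with a call by total counts. In WT mice it was at -0.27 without a call. Pclo passed only in WT mice, at 0.84 against 0.64 in Shank3 mice, and the difference did not pass (adjusted p = 1).

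Scaling by total counts moved the median log2 fold change of all genes to 0.85 and 0.57 at 1 h and to 0.98 and 1.17 at 4 h in WT and Shank3 mice. Under it 36 vesicle genes rose and 1 fell in WT mice at 4 h, and 37 rose and 1 fell in Shank3 mice. The share of all genes called under this scaling is not set beside these counts. They are therefore not read as particular to the vesicle genes. The median of the vesicle genes less that of all genes was 0.67 and 0.72 at 4 h with TMM, and 0.68 and 0.75 by total counts.

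Markers of cell types moved too. The 6 pyramidal markers summed to 1335 to 1994 CPM in naive WT mice of cohort 2 and 2227 to 3835 CPM at 4 h, and to 1501 to 1862 CPM in naive and 2166 to 3653 CPM in 4 h Shank3 mice, with 4 of 6 rising and 1 falling in each. The 5 oligodendrocyte markers summed to 76.1 to 84.3 CPM in naive WT mice and 102 to 251 CPM at 4 h, and to 68.7 to 111 CPM in naive and 114 to 316 CPM in 4 h Shank3 mice. Of the 3 of these that were tested 2 rose in each genotype, and Mag was at 0 in 25 libraries. The 5 microglia markers, of which Csf1r was the only 1 tested, summed to 575 to 871 CPM in naive WT mice and 167 to 384 CPM at 4 h, and to 556 to 800.1 CPM in naive and 163 to 357 CPM in 4 h Shank3 mice. Csf1r averaged 559.9 CPM over all libraries and Cx3cr1, the next microglia marker, 0.416 CPM, so this sum was nearly all Csf1r. Like Cnp, the most abundant oligodendrocyte marker at 83.9 CPM, Csf1r has an exon opposite another gene. Csf1r fell at 4 h, with log2 fold changes of -1.43 in WT and -1.48 in Shank3 mice. No tested interneuron or astrocyte marker was called at 4 h in either genotype. At 1 h in WT mice 2 pyramidal markers rose and 1 fell, 1 of 3 tested interneuron and 1 of 3 tested oligodendrocyte markers rose, and Csf1r fell (-0.91). At 1 h in Shank3 mice 1 pyramidal marker fell and no tested marker of the other lists was called. Their part in the changes of the vesicle genes was not tested.

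The response was larger at 4 h than at 1 h, averaged over genotypes, for 3 of the 38 genes, where 12.4% of all genes were called, 3.74% higher and 8.61% lower. Syn1 differed by 1.18 ± 0.32 on the log2 scale (edgeR adjusted p = 0.0128), Dnm1 by 0.90 ± 0.28 (adjusted p = 0.0278) and Vamp1 by 0.84 ± 0.28 (adjusted p = 0.0398). Time and cohort cannot be told apart here, since each time was run in 1 cohort with its own naive mice. In the next gene by p, Unc13a, the 4 h response was lower by an amount that did not pass (-0.43 ± 0.16, adjusted p = 0.0752). No gene was called without the 4 libraries of pair share over 25%, and 1 without the 3 libraries in which ribosomal RNA took over 10% of counts. Leaving out a single library left 1 call (naive WT replicate 1 or 2, or naive Shank3 replicate 3), or gave 5 (naive WT replicate 3) or 6 (WT 4 h replicate 2 or Shank3 4 h replicate 6).

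The pair share was next put into the model as a covariate, on a centred log2 scale. The slope on it passed the threshold for 29 vesicle genes upward and 3 downward, or 84.2% of the 38, against 62.9% of all genes. It was steepest for Napa at 2.31 ± 0.18 and Syn1 at 1.74 ± 0.13 log2 units per doubling of the pair share. Doc2a had the steepest fall at -1.37 ± 0.10, and Rims1 was near level at 0.03 ± 0.12. With the covariate 14 vesicle genes rose and 2 fell in WT mice at 1 h, where 21.7% of all genes were called, and 14 of these 16 were also called without it. At 4 h in WT mice 3 rose, where 7.69% of all genes were called, and in Shank3 mice none was called, where 0.529% of all genes were. Among genes called at 4 h without the covariate, the estimate turned below 0 with it for Napa (-0.14), Sh3gl2 (-0.08), Snap25 (-0.016), Stx1a (-0.0042) and Syngr1 (-0.019) in WT mice. In Shank3 mice it did so for Rab3a (-0.16), Sh3gl2 (-0.08), Stx1a (-0.07) and Syt5 (-0.25). None of these turned values passed the threshold. The coefficient of variation between libraries that edgeR fits in common to all genes was 24.2% before the covariate entered and 13.3% after. Within a genotype and cohort, the pair shares of swim and naive libraries did not overlap at 1 h or at 4 h. At both times a change of the genes and a change of the pair share therefore cannot be told apart.

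Snap91, Syn2 and Synj1 were the 3 that rose at 4 h in WT mice with the covariate. Snap91 was at 0.96 ± 0.21 (edgeR adjusted p = 0.00297), Syn2 at 0.68 ± 0.16 (adjusted p = 0.00519) and Synj1 at 0.61 ± 0.19 (adjusted p = 0.0287). At 1 h in WT mice Napb was at 1.28 ± 0.30, Snap91 at 1.25 ± 0.27, Syn2 at 1.12 ± 0.17 and Stxbp5 at 1.07 ± 0.27, with adjusted p values of 0.00357, 0.000642, 1.28e-05 and 0.00317. Syt1 was at -0.62 ± 0.13 (adjusted p = 0.000515) and Doc2a at -0.29 ± 0.10 (adjusted p = 0.0351). In Shank3 mice at 1 h 2 rose and 2 fell, where 12% of all genes were called. Those were Syn2 at 0.60 ± 0.16 and Snap91 at 0.74 ± 0.22, with Syt1 at -0.50 ± 0.13 and Doc2a at -0.30 ± 0.10. So Syn2 and Snap91 were called upward at 1 h in both genotypes with and without the covariate, and Syt1 downward. Since the pair shares did not overlap at 1 h within a genotype and cohort, these calls do not separate the genes from the pair share.

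**Figure D3:**
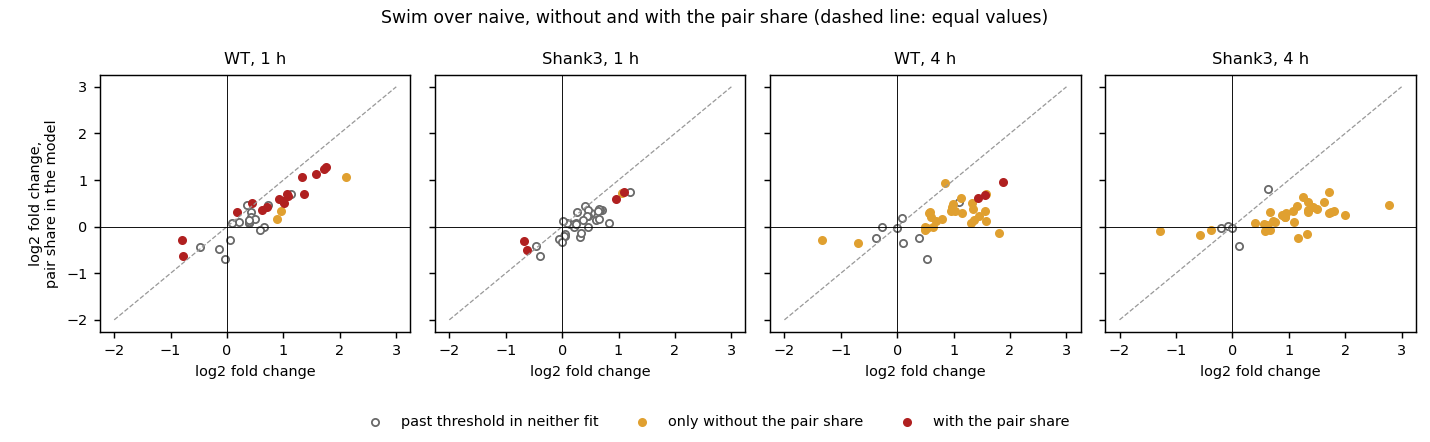
Log2 fold change (swim over naive) of the 38 genes without the pair share (horizontal axis) and with it in the model (vertical axis), with the line of equal values dashed. Red points passed with the pair share in the model (16 in WT and 4 in Shank3 mice at 1 h, 3 in WT and 0 in Shank3 mice at 4 h) and yellow points passed only without it. Snap91 in WT mice at 4 h was at 1.87 without the pair share and 0.96 with it.

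Of the 38 genes 16 had no gene on the opposite strand, 11 had only a gene body there and 11 had an exon opposite an exon. Of the 16 without an opposite gene, 7 rose in WT and 2 in Shank3 mice at 1 h, 13 in WT and 14 in Shank3 mice at 4 h, and none fell. Of all 4901 tested genes of that kind 21.5% and 5.28% rose at 1 h and 38.4% and 44.8% at 4 h, while 5.53% and 2.43% fell at 1 h and 11.6% and 11.8% at 4 h. The median log2 fold change of the 16 at 4 h was 1.06 in WT and 1.13 in Shank3 mice, against 0.57 and 0.62 over the 4901 genes. Of the 11 with an exon opposite, 4 rose and 1 fell in WT mice at 1 h and 1 rose in Shank3 mice. At 4 h 8 of them rose and 1 fell in WT mice, and 8 rose and 2 fell in Shank3 mice. Of all 5172 tested genes with an exon opposite 11.1% rose and 31.4% fell at 1 h in WT mice. In Shank3 mice 4.62% of them rose and 13% fell at 1 h. At 4 h 18% of these 5172 genes rose and 45.7% fell in WT mice, and 18.7% rose and 50.5% fell in Shank3 mice. Whether reads were counted by strand is not given in the sources used here, so reads of these 11 and of their opposite genes may not be separable.

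For Syn2 the opposite row is Timp4, an inhibitor of metalloproteinases, whose exons share 90 bases with it and whose row held 108134 counts against 18042 on Syn2. The share of both rows that lay on Syn2 was 6.2 ± 1.4% (SD, n = 4) in naive WT mice of cohort 2 and 21.2 ± 9.11% (n = 5) at 4 h. For Bin1 the opposite row, A830052D11Rik, held 28255 counts against 4613, and the share on Bin1 went from 5.92 ± 3.29% to 29.3 ± 13% in WT mice and from 5.03 ± 2.42% to 34.3 ± 16.6% in Shank3 mice. The row A830052D11Rik itself fell, with log2 fold changes of -1.67 ± 0.34 (± SE, edgeR adjusted p = 0.000127) and -1.80 ± 0.32 (adjusted p = 1.77e-05). For Syt4 the share on its row against Gm26658 went from 2.15 ± 1.27% to 10.6 ± 5.63% in WT mice. For Synj1 against 4930404I05Rik the share went from 49.7 ± 5.19% to 78.8 ± 9.3%, and for Syn1 against Araf, whose exons share 9 bases with it, from 22.7 ± 5.03% to 54.6 ± 14.2%.

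For Rab3a against Mpv17l2 the share was 69.7 ± 6.02% in naive WT mice and 67.8 ± 11.2% at 4 h, and 67.6 ± 10.6% and 71.7 ± 16.3% in Shank3 mice. Both rows rose at 4 h, Mpv17l2 by 1.42 ± 0.37 (edgeR adjusted p = 0.00171) and 0.94 ± 0.36 (adjusted p = 0.0231) on the log2 scale. The share on Doc2a also moved little. Its exons share 1103 bases with Ino80e, a chromatin remodelling subunit, and the Ino80e row held 104641 counts against 28864. The share on Doc2a was 22.5 ± 3.02% (n = 4) in naive WT mice of cohort 2, 24.2 ± 0.799% (n = 5) at 4 h, 21 ± 2.71% (n = 4) in naive Shank3 mice and 23.8 ± 1.02% (n = 6) at 4 h. Both rows fell at 4 h, Ino80e with a log2 fold change of -1.45 ± 0.26 in WT mice (edgeR adjusted p = 2.42e-05) and -1.54 ± 0.24 in Shank3 mice (adjusted p = 4.02e-06). The level and the fall of Doc2a are therefore uncertain as values of Doc2a alone. For Unc13a the share against Colgalt1 went from 64.3 ± 5.46% to 80.4 ± 3.46% in Shank3 mice, while both rows fell (Colgalt1 at -1.56 ± 0.23, adjusted p = 2.26e-06).

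**Figure D4:**
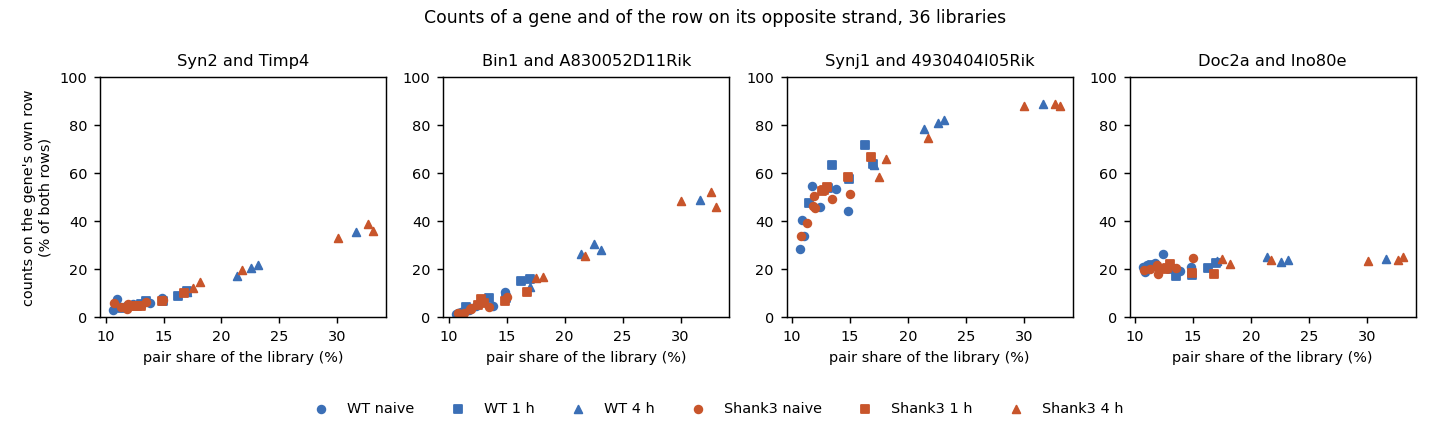
Percent of the counts of a vesicle gene and of the row opposite it that lie on the vesicle gene (vertical axis) against the pair share of the library in percent (horizontal axis), for 36 libraries. Circles are naive, squares 1 h and triangles 4 h libraries, with WT in blue and Shank3 in orange. The share climbs along the pair share for Syn2, Bin1 and Synj1 and stays between 17.4% and 26.6% for Doc2a.

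Between genotypes none of the 38 genes differed past the threshold. That held for naive libraries, where 0.00882% of all genes were called, for those at 1 h (0%), those at 4 h (0.00882%) and for the average over conditions (0.0265%) by edgeR, and DESeq2 also called 0 of the 38 genes in each. No gene had every Shank3 library above or below every WT one at 1 h or 4 h, which held for 0.0882% and 0.097% of all genes at 1 h and for 0.106% and 0.097% at 4 h. At an unadjusted p under 0.05 there was 1 gene for naive libraries, 1 for those at 1 h, and 0 for those at 4 h and in the average. In naive mice the smallest p was that of Snap91, with 20.7, 12.7 and 14.1 CPM in WT and 20.2, 26.7 and 26.6 CPM in Shank3 mice of cohort 1. In cohort 2 it had 12.7, 19.7, 32 and 35.9 CPM in WT and 31.8, 38.9, 26.1 and 38.7 CPM in Shank3 mice. The groups overlapped in both cohorts, and the log2 difference was 0.53 ± 0.26 (approximate 95% interval 0.02 to 1.04, edgeR adjusted p = 1). Sv2a at 0.47 ± 0.25, Napb at 0.45 ± 0.24 and Stxbp5 at 0.37 ± 0.21 came next, each with an interval that holds 0. At 1 h Bin1 had the smallest p, with a log2 difference of -0.40 ± 0.19 (interval -0.78 to -0.02, edgeR adjusted p = 1), with 45.2 at the lowest, 57.6 at the median and 76.7 at the highest CPM in WT and 43, 41.1, 54.2, 50.6 and 39 CPM in Shank3 mice, which overlapped. Sv2b (0.25 ± 0.19), Stxbp5 (-0.23 ± 0.19) and Syt7 (-0.21 ± 0.21) followed.

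At 4 h the genes with the smallest p were Napa at 0.49 ± 0.31, Syngr3 at 0.37 ± 0.27, Pclo at -0.28 ± 0.21 and Syt7 at 0.24 ± 0.19, with edgeR p values of 0.126, 0.176, 0.19 and 0.203 before adjustment. Napa, Syngr3 and Syt7 reversed to -0.31, -0.036 and -0.028 without the 4 libraries of pair share over 25%, of which 3 were Shank3 and 1 was WT. By limma with quality weights 8 genes were higher in Shank3 mice at 4 h, where 24.6% of all genes were called. They were Dnm1, Napa, Syn1, Syngr1, Syngr3, Syt5, Syt7 and Vamp2, with log2 differences of 0.40 for Syngr1 to 0.97 for Napa. In the average over conditions Snap91 (0.24 ± 0.14), Sv2a (0.21 ± 0.14), Bin1 (-0.16 ± 0.11) and Syngr1 (0.12 ± 0.10) had the smallest p. The median approximate 95% interval reached 0.39 log2 units either side of the estimate for naive libraries and 0.39 for those at 1 h. It reached 0.37 for those at 4 h and 0.22 in the average. Differences within these sizes are not excluded. These widths are not limits of detection, since estimates of 0.53 in naive libraries and -0.40 at 1 h did not pass the threshold either.

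The swim response did not differ between genotypes past the threshold for any of the 38 genes, and 0% of all genes were called at 1 h and 0% at 4 h by edgeR. DESeq2 and limma called 0 of the 38 genes at both times as well. At 1 h the vesicle genes lay mostly below 0, with a median of -0.31 and 8 of 38 above it, or 21.1%. Over all genes the median was -0.06 with 45.0% above 0, and over genes with no opposite gene -0.21 with 34.5% above 0. Stxbp5 had the smallest p, with a Shank3 less WT response of -0.89 ± 0.39 on the log2 scale (approximate interval -1.65 to -0.13, edgeR adjusted p = 1). It was the only 1 of the 38 with an unadjusted p under 0.05. Amph at -0.55 ± 0.31, Syt4 at -1.14 ± 0.66 and Syn2 at -0.63 ± 0.38 came next. At 4 h the median was 0.07 over the vesicle genes and -0.02 over all genes, no unadjusted p was under 0.05, and the smallest were those of Napa (0.97 ± 0.63), Vamp1 (0.54 ± 0.35), Syt5 (0.63 ± 0.47) and Bin1 (0.32 ± 0.31). The median interval reached 0.73 log2 units either side at 1 h and 0.61 at 4 h, and the 12 genes that rose at 1 h in WT but not in Shank3 mice are not shown to differ between them.

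**Figure D5:**
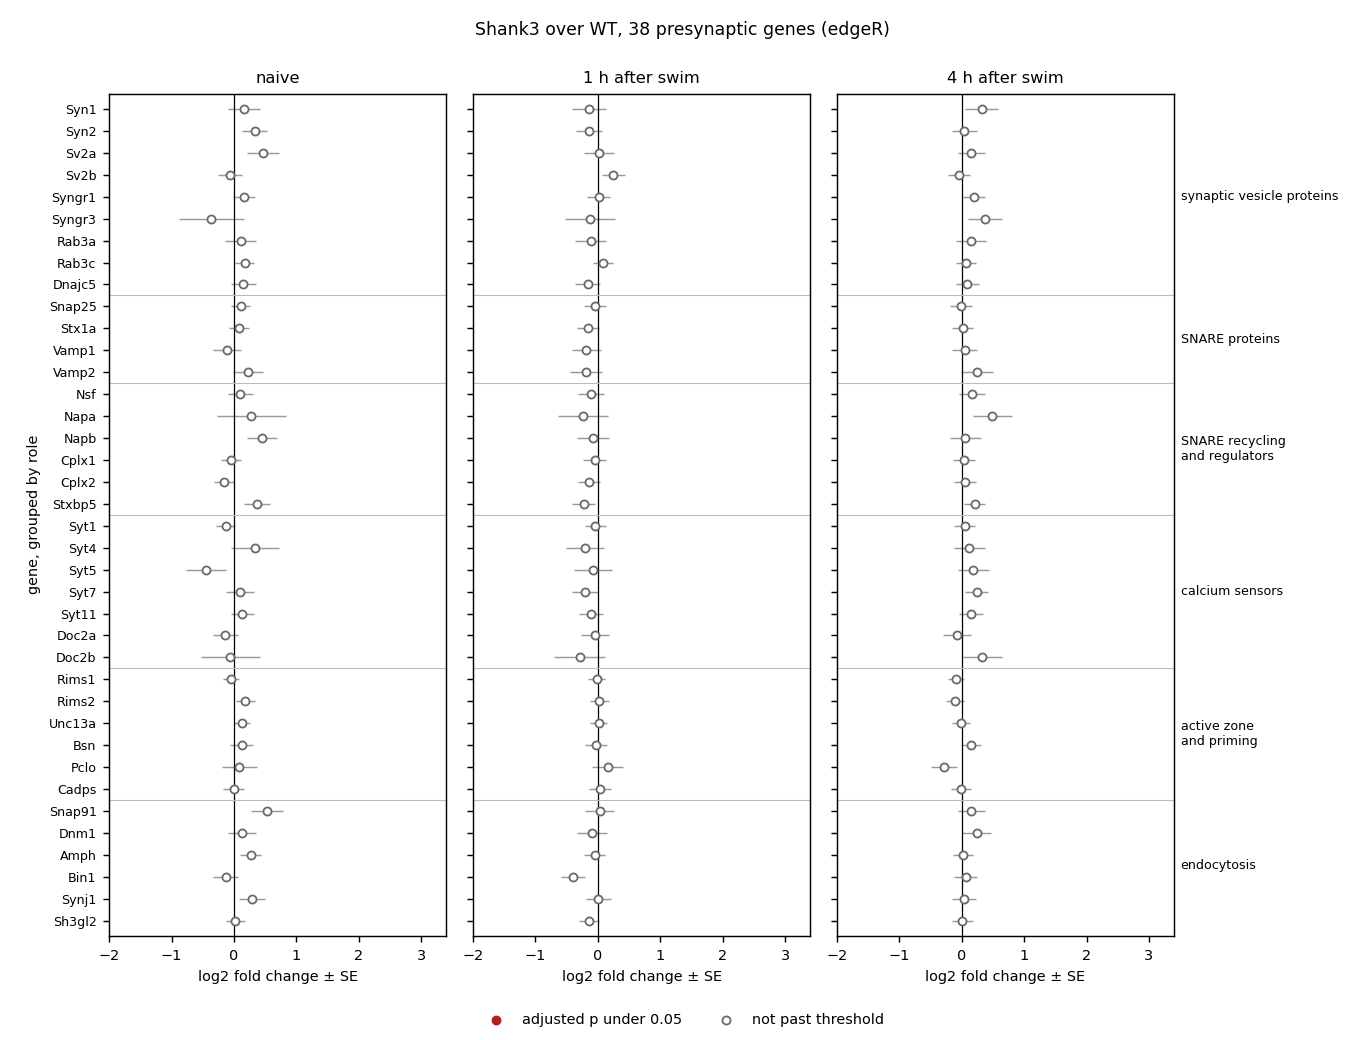
Shank3 against WT mice: log2 fold change (± SE) of the 38 genes for naive libraries and those taken 1 h and 4 h after the swim. All points are open, since none passed an edgeR adjusted p of 0.05, and they run from -0.44 (Syt5) to 0.53 (Snap91) in naive mice.

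Of 77 other presynaptic genes 67 were tested, and none passed the threshold between genotypes. In WT mice 25 rose and 3 fell at 1 h, where 16.9% of all genes rose and 17.3% fell. At 4 h in WT mice 36 rose and 6 fell, where 29% of all genes rose and 26.9% fell. In Shank3 mice 3 rose and 2 fell at 1 h, where 4.99% of all genes rose and 7.25% fell. At 4 h in Shank3 mice 36 rose and 6 fell, where 32.7% of all genes rose and 29.4% fell. The median log2 fold change of the 67 was 0.63 and 0.33 at 1 h and 0.60 and 0.61 at 4 h in WT and Shank3 mice. Cltc, the clathrin heavy chain, rose by 1.63 ± 0.30 in WT mice at 1 h (edgeR adjusted p = 0.00056) and by 1.15 ± 0.29 in Shank3 mice (adjusted p = 0.0159). Ap2a2, a subunit of a clathrin adaptor complex, rose by 1.08 ± 0.24 in WT mice at 1 h (adjusted p = 0.00189), and the SNARE Snap29 by 2.19 ± 0.50 in Shank3 mice (adjusted p = 0.0085). At 4 h in WT mice Cltc rose by 1.71 ± 0.26 (adjusted p = 5.73e-06) and Dnm2, the dynamin of most tissues, was at -1.81 ± 0.28 (adjusted p = 6.56e-06). At 4 h in Shank3 mice the active zone gene Rims3 rose by 1.58 ± 0.27 (adjusted p = 7.59e-06). Ap2a2, Snap29 and Dnm2 have an exon opposite another gene, so their reads and those of the opposite genes may not be separable. Snap29 averaged only 9.25 CPM. With the pair share in the model 6 of the 67 rose and 2 fell at 4 h in WT mice, where 7.69% of all genes were called. None of the 67 was called at 4 h in Shank3 mice, where 0.529% of all genes were.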

How the data were processed

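Ribosome-bound RNA from 36 libraries was described by one file of raw gene counts per library, deposited by the authors per the file headers (whole numbers, not normalized). The submitters' processing notes name Trimmomatic 0.39, FastQC, HISAT2 2.2.0, StringTie 2.1.3, Salmon 1.4, DESeq2 and the mm10 build. Which of them made the counts, and whether strand was used, is not given in the sources used here. Of 55470 gene IDs 55143 had a symbol and 55229 a position in GENCODE vM21. Totals ran from 0.884 to 3.52 M counts, which limits precision for genes of few counts.

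Groups came from the genotype, treatment and cohort labels. Genes passing edgeR's filterByExpr over genotype, treatment and cohort were scaled by TMM and fitted with edgeR 4.0.16 (R 4.3.3) by its quasi-likelihood test, 1 mean per genotype, treatment and cohort. P-values were Benjamini-Hochberg adjusted over all 11341 genes with a threshold of 0.05, and adjusted p values are from edgeR unless another tool is named. SE is the log2 fold change over the square root of F, and approximate 95% intervals are 1.96 SE either side. CPM uses TMM-scaled library sizes. The scripts were tested on simulated data. The members and lists were chosen with earlier results of these data known. All 38 members are named, with full statistics for the 4 of smallest p in a comparison, others singled out after their values were seen, and for other presynaptic genes the 2 of smallest p in each swim comparison. One gene that this rule names is not reported here. Alternatives were limma 3.58.1, DESeq2 1.42.0, other scaling, filters, strand classes, an additive cohort, a replicate block and left-out libraries.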

Additional observations from a re-analysis of the deposited data

Results flagged for a closer look

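In 17 of 234 groups of 4 to 6 libraries, the highest or lowest library lay further from the rest than Dixon's 95% critical value allows. Chance alone marks about 1 in 20 groups. Replicate 3 of the Shank3 1 h group accounted for 7 of the 17 and had the highest pair share of its group, 16.8%. It was the highest library for Syn1 (190.2 CPM), Rab3a (108 CPM), Snap25 (2382 CPM), Vamp2 (378 CPM), Nsf (316 CPM) and Stxbp5 (41.8 CPM), and the lowest for Syt1 (325 CPM).

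In the WT 1 h group Vamp1 stood apart in replicate 3 (36.3 CPM), Cplx2 in replicate 1 (1719 CPM), and Syt4 (26 CPM) and Doc2b (9.42 CPM) in replicate 2. Syt7 stood apart in Shank3 1 h replicate 4 (33.1 CPM). Among naive libraries of cohort 2 this held for Syn1 in WT replicate 4 (81.9 CPM), Syt1 in Shank3 replicate 4 (549.7 CPM) and Rims1 in Shank3 replicate 7 (80.2 CPM). In WT 4 h replicate 5, which has a pair share over 25%, Stx1a (298 CPM) and Dnm1 (878 CPM) stood apart.

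The swim response differed between 4 h and 1 h for Syn1 by 1.18, for Dnm1 by 0.90 and for Vamp1 by 0.84 on the log2 scale, by edgeR's test of the difference itself. Time and cohort cannot be told apart in these values.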

How the results depend on the processing

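Counts of vesicle genes past the threshold are compared here with 17 (WT 1 h), 4 (Shank3 1 h), 30 (WT 4 h), 33 (Shank3 4 h) and 3 (4 h less 1 h). The shares of all genes called in each alternative are not set beside them, so these counts are not read as particular to the vesicle genes. With limma the counts were 13 for Shank3 at 1 h, 16 for 4 h less 1 h, and 8 for Shank3 against WT at 4 h, and with DESeq2 8 for 4 h less 1 h. Fitted only on rows free of any opposite gene, they were 7 and 2 at 1 h, 10 and 13 at 4 h in WT and Shank3 mice (of 16), and 1 for 4 h less 1 h. With the pair share they were 3 and 0 at 4 h, and 0 for 4 h less 1 h. An additive cohort term gave 11 for Shank3 at 1 h. Leaving out libraries with over 10% ribosomal RNA gave 28 for Shank3 at 4 h and 1 for 4 h less 1 h. Among those left out were naive Shank3 replicates 6 and 7 of cohort 2, at 13.5% and 38.6%.

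Of 2 alternatives chosen after seeing the data, total-count scaling gave 30 and 10 at 1 h in WT and Shank3 mice. The other left out the 4 h libraries with a pair share over 25% and gave 10 for Shank3 at 1 h. At 4 h it gave 29 in WT and 23 in Shank3 mice, and 0 for 4 h less 1 h. It also turned Napa to -0.31, Syngr3 to -0.036 and Syt7 to -0.028 in Shank3 against WT mice at 4 h. Summing antisense rows turned Syt4 to 0.17 in the genotype difference of the 1 h response. The causes were not tested.

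Leaving out 1 library gave 11 to 20 genes in WT at 1 h, 0 to 4 in Shank3 at 1 h, 25 to 31 in WT at 4 h, 28 to 34 in Shank3 at 4 h, 1 to 6 for 4 h less 1 h, and 0 for each genotype comparison and interaction.

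Same-numbered libraries correlated by -0.252 to 0.735 over 17 pairs, 5 of them over 0.1, so the numbers were not taken to pair the libraries. A replicate block gave 15 and 0 genes at 1 h, 26 and 30 at 4 h in WT and Shank3 mice, and 0 for 4 h less 1 h.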
